A study of Mus musculus with 4 samples.

Results

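To describe where N6-methyladenosine (m6A) was detected on the mRNAs of the zinc finger genes named Zfp, the peak list of splenic natural killer (NK) cells from C57BL/6 mice was searched for every protein-coding gene of the GRCm38 annotation whose symbol is Zfp followed by digits alone. The annotation held 365 such genes among 21951 protein-coding genes, and 326 of the 20727 distinct peaks of the list were assigned to them. The list came from MeRIP-seq, in which an antibody pulls down mRNA fragments that carry m6A and these are sequenced beside input fragments, with 2 m6A immunoprecipitates and 2 inputs. Before they were sorted from the spleen, NK cells were amplified in vivo by a plasmid that expresses IL-15, so all 4 libraries share this treatment, which lasted at least a month. The animals of the study were young adults when used, the labels give no age for these libraries, and whether cells of several mice were pooled is not given in the sources used here. Each peak carries 1 fold enrichment of immunoprecipitate over input and 1 peak-calling p for all libraries together. There is thus no value per library, the depth is unknown, and no error between replicates can be given. The list holds peaks and no expression levels, so NK cell identity could not be checked against marker genes.

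The proteins of most of these genes carry C2H2 zinc fingers, short repeats in which a pair of cysteines and a pair of histidines hold a zinc ion and a helix reads the bases of DNA. The fingers stand in tandem, are joined by a conserved linker, and in the mouse are often encoded together by a single long last coding exon. Many members also have a KRAB domain ahead of the fingers, through which TRIM28 and the SETDB1 methyltransferase are brought to DNA and silence transposable elements. A smaller number of members are not DNA-binding repressors at all and act on RNA, on ribosomes or in ubiquitin signalling. In mammalian mRNA, m6A is placed by the METTL3 and METTL14 complex within the letters DRACH (where D stands for any base but C, R for a purine and H for any base but G) and is known to gather near stop codons, in long internal exons and in 3' UTRs.

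The Zfp transcripts have this architecture in the annotation. The median member had 11 finger patterns and the most had 36, in Zfp142. In the longest coding transcript of each member, the exon with the stop codon held a median of 1254 coding nt, against 178 nt over all protein-coding genes. This exon held at least 1000 coding nt in 244 members (66.8%) and in 8.44% of all protein-coding genes. A KRAB pattern was found ahead of the fingers in 218 members, and 13 members, Zfp36 among them, had 0 C2H2 patterns.

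The linkers that join the fingers hold the consensus letters in their codons. The members encode 1804 linkers of the usual kind in 291 genes, and 1099 of them (60.9%) hold a DRACH match within the linker codons and the next codon. In 1028 linkers (57.0%) the match is AAACC, read across the lysine and proline codons. The 4 most used linker codings are shown with these letters in capitals.

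linker coding used 174 times: acaggagagAAACCt
linker coding used 167 times: actggagagAAACCc
linker coding used 115 times: actggagagAAACCt
linker coding used 110 times: acaggagagAAACCc

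These 4 codings make up 9.65%, 9.26%, 6.37% and 6.10% of all linkers. Of the 1804 linkers, 89 (4.93%) lay wholly inside a listed peak, and 63 of those 89 held a DRACH match. The 1804 linkers include those of members without any listed peak, which lowers this share. Whether linkers lay in peaks less often than other sequence was not tested. Among peaks of fold under 5 that held whole fingers, the lowest p was in Zfp52, a member with a KRAB pattern and 14 finger patterns. Its peak at chr17:21561649-21562006 (plus strand) lay wholly in the coding part of the last exon, with 274 of its 358 nt in finger patterns, a fold of 1.86 and a p of -9.31 on the log10 scale. The fingers numbered 11, 12 and 13 from the start of the protein, each with the 7 codons that follow it, were inside the peak and are shown as an example of a finger array under a peak of low fold, with every DRACH match in capitals. Finger peaks of lower p had higher folds, such as that of Zfp787 with a fold of 5.18 and a log10 p of -25.9.

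Zfp52 finger 11, chr17:21561713-21561796: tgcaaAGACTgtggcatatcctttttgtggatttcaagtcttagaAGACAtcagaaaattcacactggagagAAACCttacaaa
Zfp52 finger 12, chr17:21561797-21561880: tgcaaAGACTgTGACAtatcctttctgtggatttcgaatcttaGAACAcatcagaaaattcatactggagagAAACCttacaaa
Zfp52 finger 13, chr17:21561881-21561964: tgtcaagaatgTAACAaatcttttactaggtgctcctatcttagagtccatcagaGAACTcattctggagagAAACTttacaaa

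Fingers 11 and 13 held 3 matches each and finger 12 held 4. Sequences were read from the GENCODE transcripts of GRCm38 and the matches were sought on the strand of the gene. A match describes letters and is not a mapped m6A site.

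A peak was listed for 195 of the 365 members (53.4%, 95% Wilson interval 48.3 to 58.5%), beside 46.3% of all protein-coding genes. In bulk RNA, fewer cells with a transcript and less transcript per cell cannot be told apart, and a gene without a peak may be unmethylated or too low for a call. With peaks of p under 0.001 the order turned, with 111 members (30.4%, interval 25.9 to 35.3%) beside 34.0% of protein-coding genes. The gap was smaller among long transcripts. Of the 274 members whose longest transcript was at least 2597 nt, the lower quartile of the members, 160 had a peak (58.4%, interval 52.5 to 64.1%), beside 54.8% of the 11050 other protein-coding genes of at least that length, a share inside the interval of the members.

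Members with a peak had longer transcripts than those without. The 195 members with a peak had a median transcript of 3621 nt and a median 3' UTR of 1446 nt, while the 170 without had 2987 and 1023 nt. The median coding sequence was 1737 and 1644 nt. A peak was found in 102 of 218 members with a KRAB pattern (46.8%, interval 40.3 to 53.4%) and in 93 of 147 without (63.3%, interval 55.2 to 70.6%). The gap was present at p under 0.001 as well, with 24.8% (interval 19.5 to 30.9%) and 38.8% (interval 31.3 to 46.8%). The median longest transcript was 3162 nt with the KRAB pattern and 3723 nt without it, and the part of length in the gap was not tested.

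**Figure D1:**
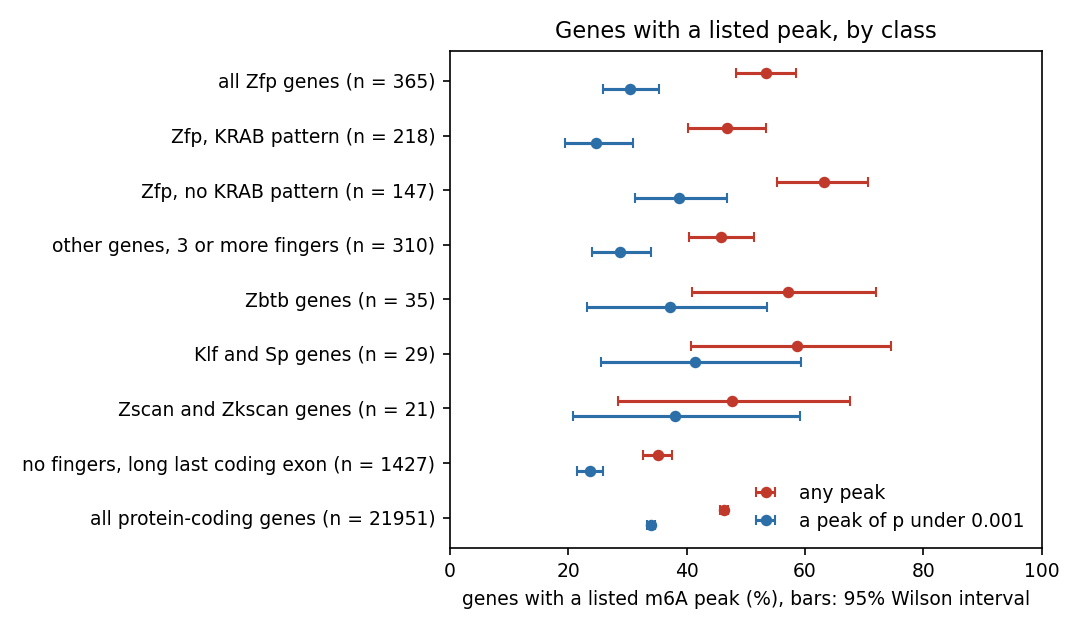
Share of genes with a listed m6A peak (x axis, percent) for each gene class (y axis), with 95% Wilson intervals, for any peak (red) and for a peak of p under 0.001 (blue). The Zfp genes without a KRAB pattern reached 63.3% and those with one 46.8%, and all protein-coding genes stood at 46.3%.

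Finger number followed no such order. A peak was listed for 57.1% of the 21 members with 1 to 2 finger patterns, 53.3% of the 75 with 3 to 7, 55.3% of the 141 with 8 to 12 and 53.0% of the 115 with 13 or more. Of the 13 members with 0 patterns, 4 had a peak (30.8%, interval 12.7 to 57.6%). Among other C2H2 genes, a peak was listed for 142 of 310 with at least 3 finger patterns (45.8%, interval 40.3 to 51.4%), 20 of 35 Zbtb genes (57.1%, interval 40.9 to 72.0%), 17 of 29 Klf and Sp genes (58.6%, interval 40.7 to 74.5%) and 10 of 21 Zscan and Zkscan genes (47.6%, interval 28.3 to 67.6%). The intervals of these classes overlap that of the Zfp genes. The 1427 coding genes with no finger whose last coding exon is at least as long as 1000 coding nt had a peak in 35.1% (interval 32.7 to 37.6%).

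The members lie in clusters on several chromosomes, and every chromosome with members had at least 1 of them with a peak. Chromosome 7 holds the largest number, and 47 of its 89 had a peak (52.8%), beside 40.2% of all protein-coding genes of that chromosome. On the other chromosomes with at least 17 members, the shares above that of their protein-coding genes were 21 of 41 on chromosome 17 (51.2%, beside 47.8%), 20 of 31 on chromosome 13 (64.5%, beside 46.7%), 14 of 25 on chromosome 2 (56.0%, beside 43.3%), 11 of 18 on chromosome 9 (61.1%, beside 51.6%) and 12 of 17 on chromosome 6 (70.6%, beside 45.7%). The shares below it were 13 of 30 on chromosome 4 (43.3%, beside 46.8%), 9 of 24 on chromosome 8 (37.5%, beside 51.3%) and 6 of 17 on chromosome 11 (35.3%, beside 51.5%). Such clusters arose by duplication, and reads from near-identical copies may be placed on either. Of the 365 members, 253 shared no 100-nt window with a transcript of another gene and 153 of these (60.5%) had a peak. In 19 members at least 50% of the windows were shared, and 6 of those had a peak. Leaving the 19 out gave 54.6% with a peak.

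Most members with a peak had a single peak. There were 109 with 1 peak (55.9%), 55 with 2, 21 with 3 and 7 with 4, and the highest numbers were 5 in Zfp507 and Zfp710 and 6 in Zfp36. Over all protein-coding genes with a peak, 53.3% had a single peak. Some of these counts include peaks that lie on top of each other, since 16 of the 326 peaks, in 8 genes, overlapped another listed peak of the same gene.

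Fold enrichment was higher and significance weaker than in the list at large. The median fold enrichment of the 326 peaks was 3.79 (interquartile range 2.01 to 9.48), and over the 18250 peaks of protein-coding genes it was 2.37 (1.68 to 6.64). A strong peak, defined as a fold enrichment of at least 5, made up 134 of the 326 peaks (41.1%, interval 35.9 to 46.5%), beside 29.5% of peaks of protein-coding genes. Of the 195 members with a peak, 110 had a strong peak (56.4%, interval 49.4 to 63.2%), beside 43.4%. In contrast, 145 peaks had p under 0.001 (44.5%, interval 39.2 to 49.9%), beside 62.3%, and the median log10 p was -2.84 against -4.16.

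Members with a KRAB pattern had a median fold enrichment of 4.69 and those without had 3.08, with median log10 p of -2.51 and -2.93. Among the members with KRAB, 66 of 102 with a peak had a strong peak (64.7%, interval 55.1 to 73.3%), and among those without 44 of 93 (47.3%, interval 37.5 to 57.4%). The other genes with at least 3 finger patterns stood between the Zfp genes and the list at large, with a median fold enrichment of 3.16 and a median log10 p of -2.90. Zbtb genes went beyond the Zfp genes, with medians of 4.27 and -2.59, and Klf and Sp genes had 1.985 and -3.885. A strong peak was listed for 70.0% of Zbtb genes with a peak (interval 48.1 to 85.5%) and 29.4% of Klf and Sp genes (interval 13.3 to 53.1%). In genes without fingers and with a long last coding exon it was 52.1% (interval 47.7 to 56.4%).

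Identical pairs of values recurred among the members. The pair of a 9.48-fold enrichment and a log10 p of -1.69 was given to 18 peaks, 11.4 with -2.09 to 10 peaks and 17.1 with -3.33 to 6 peaks. In all, 96 of the 326 peaks (29.4%) shared both values with at least 1 other member peak. In the plot of the 2 values these peaks fall on a common lower edge, where fold and significance rise together. Whether few reads underlie them was not tested, since the list has no counts.

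**Figure D2:**
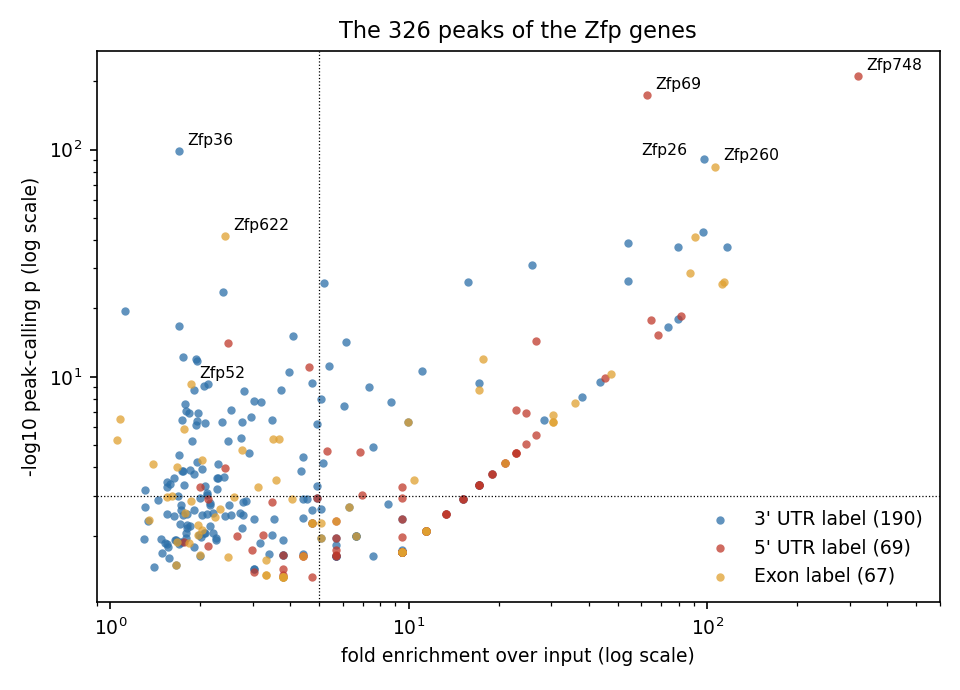
Fold enrichment (x axis, log scale) against -log10 of the peak-calling p (y axis, log scale) for the 326 Zfp peaks, coloured by the authors' region label, with dotted lines at a fold of 5 and a p of 0.001. Zfp748 has both the highest fold and the lowest p, Zfp36 pairs a fold of 1.70 with a log10 p of -98.3, and peaks of high fold and weak p line up along the lower edge.

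The region labels of the members were distributed much as in the list at large. The 3' UTR label was given to 190 peaks (58.3%, interval 52.9 to 63.5%), beside 59.4% of peaks of protein-coding genes. The 5' UTR label was given to 69 peaks (21.2%, interval 17.1 to 25.9%), beside 20.6%. The label Exon was given to 67 peaks (20.6%, interval 16.5 to 25.3%), beside 20.0%. The median fold enrichment was 2.74 for peaks with the 3' UTR label, 9.48 for those with the 5' UTR label and 3.79 for those labelled Exon. Over all protein-coding genes the same medians were 2.0, 6.16 and 3.79. The labels thus differed more from each other in fold than the members did from other genes.

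The labels and the placement of the peak centre on the longest coding transcript did not always name the same region. Of the 190 peaks with the 3' UTR label, 152 were centred in the 3' UTR, 24 in the coding sequence and 14 could not be placed. Of the 69 with the 5' UTR label, 40 were centred in the 5' UTR, 20 in the coding sequence and 2 in the 3' UTR. Of the 67 labelled Exon, 45 were centred in coding sequence and 21 could not be placed. In all, 27 of the 326 peaks touched no exon of a coding isoform and 6 touched no exon of the gene at all. For 33 peaks (10.1%, beside 15.4% of peaks of protein-coding genes) the exonic part also lay on an exon of another gene. The strand of the libraries is not given in the sources used here, so reads of overlapping genes cannot be told apart.

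The median peak of the members was narrower than in the list at large. The median exonic width was 181 nt (interquartile range 91 to 389 nt) against 211 nt for all protein-coding genes, and the median genomic span, introns included, was 239 nt against 271 nt. With a KRAB pattern these medians were 211 and 314.5 nt, and without one 180 and 195 nt. The other genes with at least 3 finger patterns and the Zbtb genes also had a median exonic width of 181 nt. Width went with fold enrichment, as 192 peaks with a fold under 5 had a median exonic width of 121 nt and the 134 strong peaks 420 nt. The widest on a coding transcript were in Zfp92, with 5767 nt and a fold of 11.4, in Zfp536, with 4621 nt and a fold of 22.8, and in Zfp423, with 3858 nt and a fold of 13.3. Each of these 3 peaks carried the 5' UTR label and ran over most of the transcript. In 30 peaks the genomic span was over 10000 nt.

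Of the 326 peaks, 284 in 172 members could be placed on the longest coding transcript. The centre lay on the last coding exon, the exon with the stop codon, in 209 of them (73.6%, interval 68.2 to 78.4%), beside 64.7% of placed peaks of protein-coding genes. This exon also takes up more of a Zfp transcript. Weighted by peaks, it made up 72.2% of the length of the member transcripts and 52.2% of all coding transcripts with placed peaks. The share of member peaks on it thus exceeded its share of the length by 1.38 percentage points, and over all protein-coding genes by 12.5 points. The members with and without a KRAB pattern stood on opposite sides of their length. With the pattern, 74.8% of placed peaks (interval 66.9 to 81.4%) were centred on this exon, which made up 85.9% of the length. Without it, 72.5% (interval 64.8 to 79.02%) were, with 61.4% of the length. Genes without fingers and with a long last coding exon placed 84.1% (interval 81.4 to 86.5%) of their peaks on it, and it made up 75.01% of their length.

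Within the last coding exon the coding part held 56 centres (19.7%, interval 15.5 to 24.7%), beside 10.4% over protein-coding genes. It took up 27.4% of the member transcripts and 7.68% of all coding transcripts. So the coding part of the long exon held fewer centres than its length would give in the members, and more than its length would give in the list at large. The genes without fingers and with a long last coding exon placed 28.5% (interval 25.5 to 31.8%) there, with 32.4% of the length. The other genes with at least 3 finger patterns placed 10.8% (interval 7.56 to 15.1%) there, with 17.4% of the length.

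Over the whole transcript, 154 centres lay in the 3' UTR (54.2%, interval 48.4 to 59.9%, beside 56.5%), 89 in the coding sequence (31.3%, interval 26.2 to 37.0%, beside 33.6%) and 41 in the 5' UTR (14.4%, interval 10.8 to 19.0%, beside 9.95%). The 3' UTR made up 46.5% of the length of these transcripts, the coding sequence 46.2% and the 5' UTR 7.30%. Strong peaks carried the difference in the 5' UTR, which held 25.5% (interval 18.2 to 34.3%) of the 110 placed strong peaks and 7.47% (interval 4.42 to 12.4%) of the 174 others. Over all protein-coding genes these were 16.8% and 7.47%.

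Fewer centres than in the list at large lay near the stop codon. A centre within 200 nt of it was found for 43 peaks (15.1%, interval 11.4 to 19.8%), beside 22.3% of placed peaks of protein-coding genes. With a KRAB pattern it was 11.1% (interval 6.85 to 17.5%) and without one 18.8% (interval 13.3 to 25.8%). The genes without fingers and with a long last coding exon had 15.9% (interval 13.5 to 18.6%). The lower share near the stop codon was thus also present in genes with a long last coding exon and no fingers.

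Along the transcript, the peak coverage of members rose at the stop codon but to a lower height. In the first 50 nt after the stop codon, 22.9% of the 173 member transcripts with a peak were covered, and 33.5% of all coding transcripts with a peak. In the genes without fingers and with a long last coding exon the highest bin, 100 to 150 nt after the stop codon, reached 32.9%. When only peaks with a fold under 5 were used, the first 50 nt reached 16.5% in members and 29.5% over all protein-coding genes. These shares are of the 112 members and 7054 protein-coding genes with such a peak, so they cannot be set directly against those of all peaks. From 1500 to 500 nt ahead of the stop codon, the coverage by these peaks was 2.30% in members. It was 5.44% in the genes without fingers and with a long last coding exon, and 4.35% over all protein-coding genes. This window holds only part of the finger arrays. In the 93 members with a KRAB pattern and a placed peak, 4731 of 168662 coding nt followed the last finger. Their arrays thus ran close to the stop codon.

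**Figure D3:**
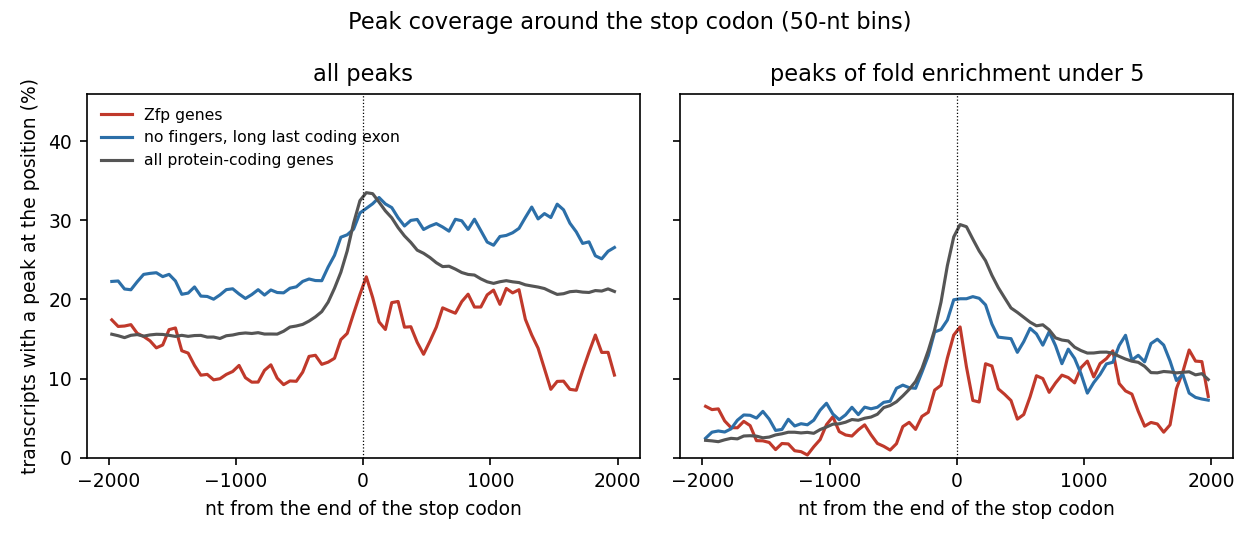
Share of transcripts covered by a peak (y axis, percent) in 50-nt bins around the end of the stop codon (x axis, nt on the transcript), for all peaks (left) and for peaks of fold under 5 (right). Each panel counts only transcripts with a peak of its kind. In the right panel the Zfp genes (red) rise to 16.5% just after the stop codon while all protein-coding genes (grey) reach 29.5%. From 1500 to 500 nt ahead of the stop codon the Zfp line stays low.

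The finger-encoding sequence was among the parts of the member transcripts least covered by peaks. For this comparison the transcript with the longest coding sequence was used, so that truncated isoforms would not hide fingers, and 173 members had a peak placed on it. Of their finger patterns 10.1% of the nt lay in a peak, of the coding sequence ahead of the first finger 10.6% and of the coding sequence after the last finger 13.02%. The coding sequence before the last coding exon, which overlaps these parts, was lower still at 9.38%. The 3' UTR stood at 15.1%, its first 500 nt at 17.8% and the 5' UTR at 26.1%, with 13.8% for the transcript as a whole. All protein-coding genes had 26.02% of the coding part of the last coding exon in peaks and the members 12.1%.

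With peaks of fold under 5 alone, in 112 members, the order changed in part. Finger patterns were covered to 2.34% and the coding sequence ahead of them to 2.0%, now the lower of these parts. The coding sequence before the last coding exon, at 2.22%, was also below the finger patterns. The 5' UTR, the most covered part with all peaks, stood at 6.62%, below the coding sequence after the last finger (7.10%), the 3' UTR (7.84%) and its first 500 nt (9.60%). The coding part of the last coding exon was covered to 3.67% in members, 7.02% in genes without fingers and with a long last coding exon and 15.1% over all protein-coding genes. Most of the finger coverage thus came from strong peaks, some of which run over the whole array. With peaks of p under 0.001, in 101 members, the finger patterns were covered to 7.21% and the transcripts to 13.2%.

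**Figure D4:**
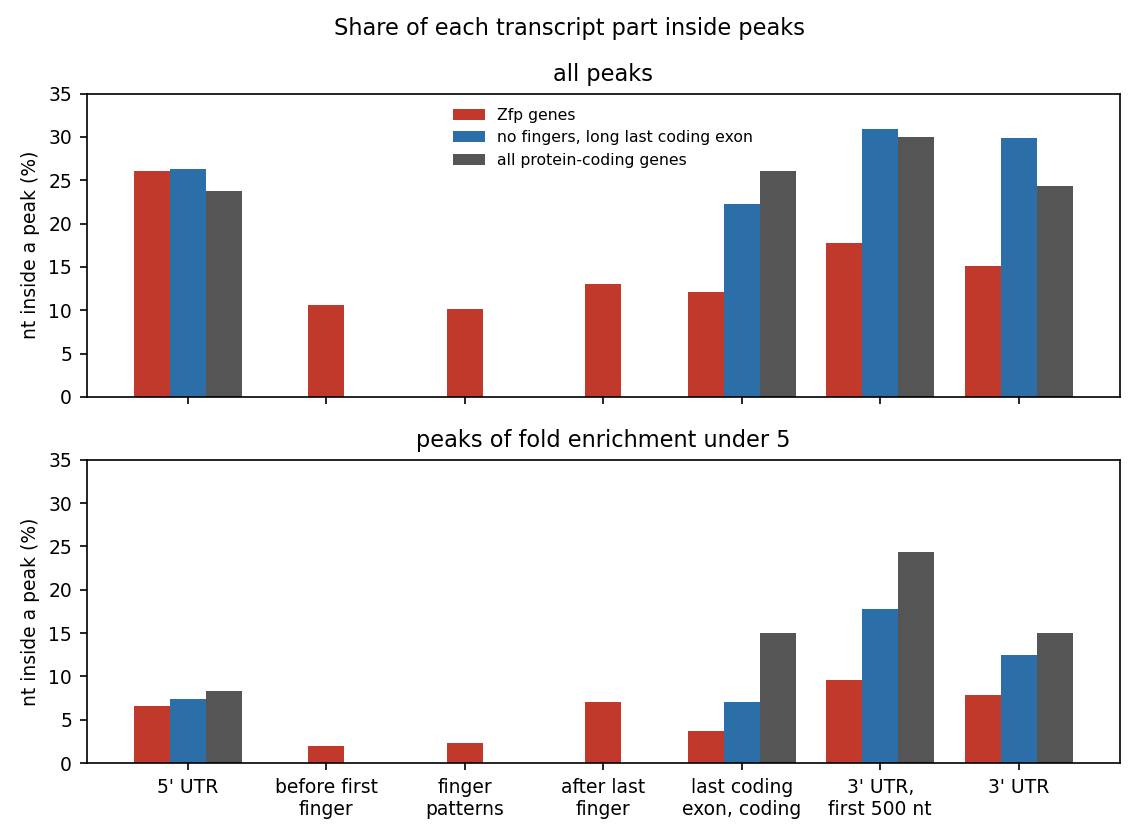
Percent of the nt of each transcript part inside a peak, for all peaks (top) and for peaks of fold under 5 (bottom), in Zfp genes (red), genes without fingers and with a long last coding exon (blue) and all protein-coding genes (grey). In the bottom panel the finger patterns stand at 2.34% and the first 500 nt of the 3' UTR at 9.60% in the Zfp genes.

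Counted by finger, 207 of 2068 finger patterns (10.01%) in 191 members with a peak were touched by a peak and 170 lay wholly inside. They belonged to 45 members, and peaks with a fold under 5 touched 41 patterns in 22 members. The 6 members with the most touched patterns supplied 82 of the 207, and 9 members were needed to reach 50% of them. All 16 patterns of Zfp612 lay in a single peak with a fold of 68.3 and a log10 p of -15.3, whose genomic span ran over 4855 exonic nt. All 11 patterns of Zfp936, Zfp968 and Zfp991 and all 10 of Zfp536 were also inside peaks, as were 23 of 27 in Zfp423. In Zfp457, with 16 patterns, 2 overlapping peaks with folds of 74.0 and 17.1 covered the end of the array, and the stronger held 357 nt of finger patterns. Zfp968 shares 98.6% of its 100-nt windows with other genes and Zfp991 73.8%, so their peaks may hold reads of copies.

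**Figure D5:**
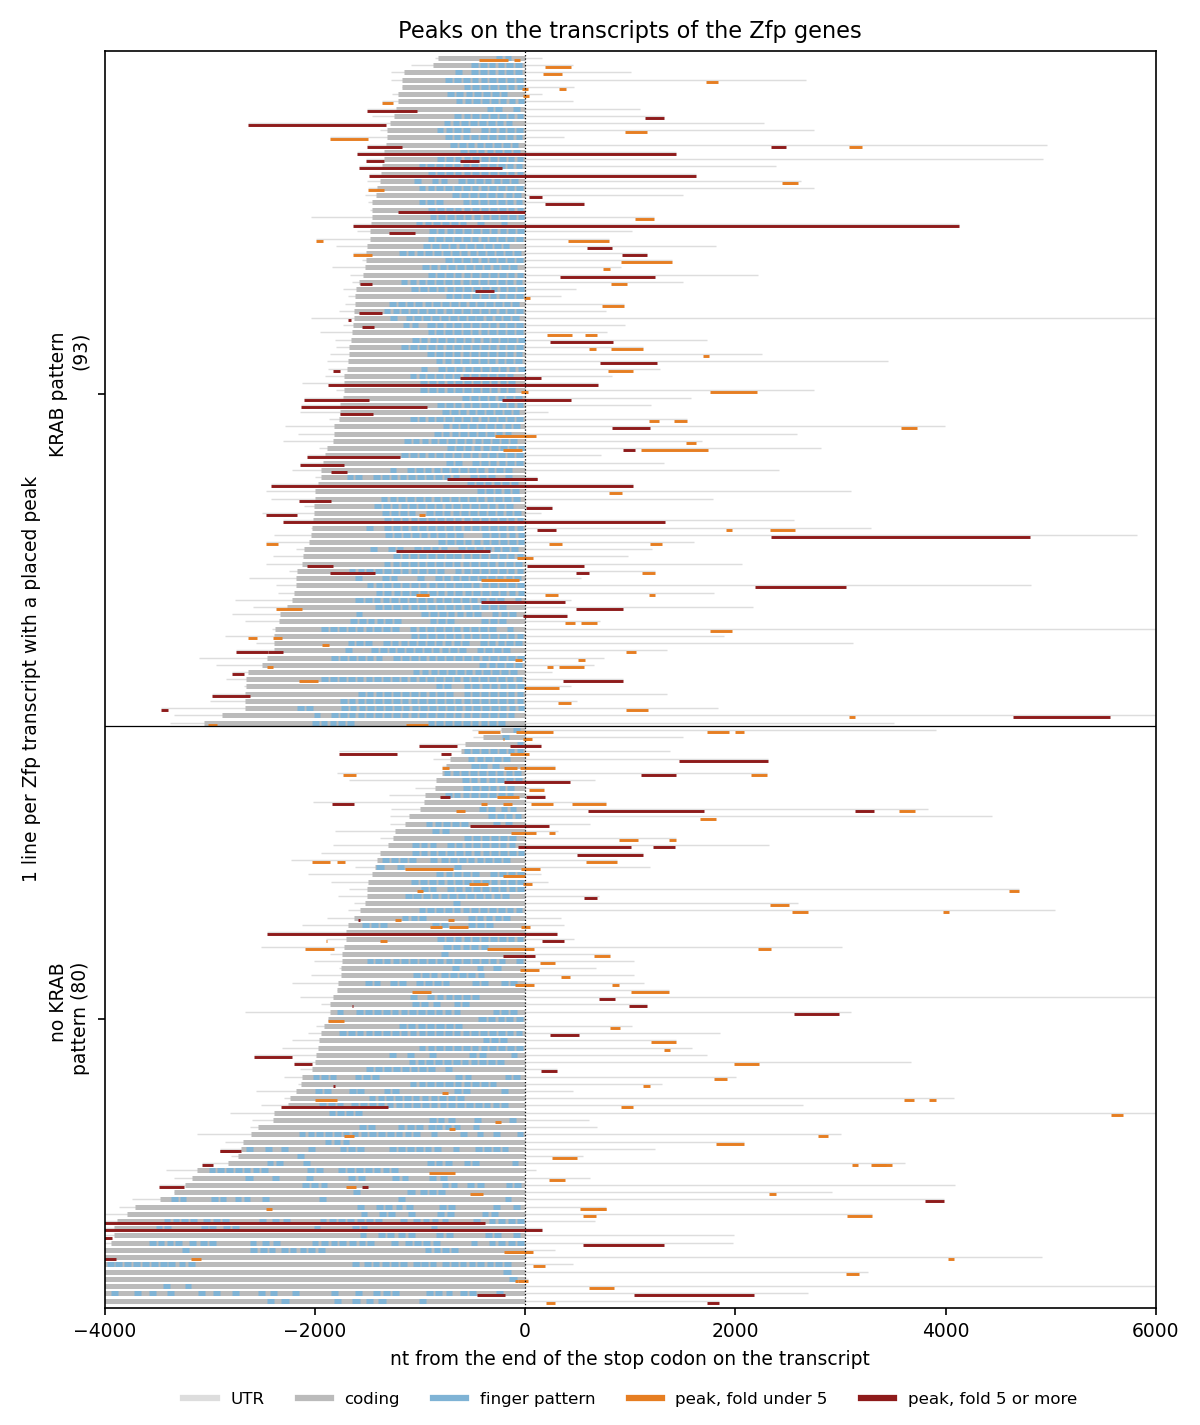
Transcripts of the 173 Zfp genes with a placed peak, 1 line each, aligned at the end of the stop codon (x axis, nt), with members that have a KRAB pattern above (93) and those without below (80). Finger patterns (blue) take up 117114 of the 356462 nt of coding sequence (grey). Peaks of fold under 5 (orange) lie mostly after the stop codon, and single strong peaks (dark red) run over whole transcripts.

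The consensus letters did not follow this distribution. In member transcripts with a peak there were 19.7 DRACH matches per kb from the first to the last finger, 21.2 in the coding sequence as a whole, 20.5 in the 3' UTR and 17.3 in the 5' UTR. Inside peaks the 3' UTR held 19.8 per kb and outside them 20.6, and the finger array held 20.2 inside and 19.6 outside. GGAC, which most DRACH matches do not contain, was found at 3.49 per kb of finger array inside peaks and 2.45 outside, and at 2.56 per kb of the finger array as a whole and 3.46 per kb of all member coding sequence, against 5.03 per kb of coding sequence over all protein-coding genes. Of 211 placed member peaks of at most 300 nt, 180 held a DRACH match (85.3%) and 75 held GGAC (35.5%), beside 85.4% and 41.4% of such peaks over all protein-coding genes.

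Of 11 members that act on RNA, ribosomes, ubiquitin or the spindle, 10 had a peak and 8 had a peak of p under 0.001, beside 46.3% and 34.0% of protein-coding genes. These members had 24 peaks with a median fold enrichment of 1.98 and a median log10 p of -6.37, and 18 peaks had p under 0.001. These peaks were thus low in fold and high in significance, the reverse of the members as a whole. This list was chosen with earlier results of these data known, so its shares describe picked genes. Peaks of 1 gene are not independent, and 6 of the 24 were of Zfp36. The part of transcript length in these shares was not tested. No KRAB pattern was found in any of the 11. The member without a peak was Zfp830.

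Zfp36 encodes tristetraprolin, which binds AU-rich elements in 3' UTRs and speeds the decay of cytokine mRNAs. It had the most peaks of all members. The peak in its 3' UTR at chr7:28376784-28377113 had a fold of 1.70 and a log10 p of -98.3, and the other 3' UTR peak had a fold of 1.12 and a log10 p of -19.5. The 2 coding peaks had folds of 1.08 and 1.05 and the 2 peaks with the 5' UTR label 2.0 and 13.3. All but the last of its peaks thus had small folds. The 3' UTR peak of log10 p -19.5 held a GGAC 112 nt after the stop codon.

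Zfp36, chr7:28377433-28377456, minus strand: cccatcttctGGACattccaagat

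Zfp622, a factor that helps the large ribosomal subunit mature in the cytoplasm, had a coding peak with a fold of 2.41 and a log10 p of -41.6 and a peak over the stop codon with a fold of 1.94 and a log10 p of -12.0. Zfp91, a ubiquitin ligase, had a peak over the end of its coding sequence with a fold of 1.75 and a log10 p of -12.2, a 3' UTR peak with a fold of 1.74 and a 5' UTR peak with a fold of 4.74. In both genes the centre of a peak lay within 10 nt of a GGAC, shown in capitals because these peaks, like the 3' UTR peak of Zfp36 above, pair consensus letters with a low fold and a low p.

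Zfp622, 3' UTR, chr15:25997332-25997355, plus strand: ccttgtctgaGGACagggaagcca
Zfp91, coding sequence, chr19:12770174-12770197, minus strand: tactgcagtgGGACagaacgggtg

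The Zfp622 letters begin 48 nt after the stop codon and those of Zfp91 at position -148 from its end. Zfp706 had 4 peaks with log10 p of -16.7, -14.1, -11.7 and -2.92 and folds of 1.70, 2.47, 1.95 and 4.93. Zfp598, the ubiquitin ligase that marks collided ribosomes, had 1 peak in the 3' UTR with a fold of 2.05 and a log10 p of -9.09. Zfp207, a spindle protein, had a peak with a fold of 5.06 and a log10 p of -7.97 that touched no coding isoform. Zfp638, an RNA-binding nuclear protein, had 4 peaks with folds from 1.67 to 26.6. Zfp106, also an RNA-binding protein, had 1 peak in the 3' UTR with a fold of 2.07. Zfp451, a SUMO ligase, and Zfp346, which binds double-stranded RNA, had 1 peak each, with log10 p of -2.05 and -1.59.

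Of 14 transcription factors without a KRAB domain, 11 had a peak and 7 had a peak of p under 0.001, beside 46.3% and 34.0% of protein-coding genes. Their 16 peaks had a median fold of 2.36, and 12 of them carried the 3' UTR label. This list was also chosen with earlier results of these data known, and the part of transcript length in its shares was not tested. Zfp335, which is needed for T cell maturation, had 2 overlapping peaks at the stop codon with folds of 2.12 and 1.78 and log10 p of -9.30 and -7.58. These peaks also lie on exons of Pcif1, an mRNA cap methyltransferase gene. Both 3' UTR peaks of Zfp687, with folds of 2.53 and 2.73, likewise lie on exons of Pi4kb. Zfp592, a partner of Zfp687 in a nuclear complex, had 2 peaks in the 3' UTR with folds of 4.93 and 1.55.

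Zfp217, known in stem cells to bind METTL3 and restrain m6A, had 1 peak with a fold of 22.8 and a log10 p of -4.61 that carried the 5' UTR label and could not be placed on the longest coding transcript. Zfp131 had 2 peaks with folds of 9.96 and 5.69. Zfp219 had 1 peak with a fold of 1.77 and a log10 p of -5.87, and Zfp384 1 peak with a fold of 1.31 and a log10 p of -3.16. Zfp143, Zfp148, Zfp281 and Zfp318 had 1 peak in the 3' UTR each, with folds of 1.98, 2.25, 3.52 and 1.65 and log10 p from -2.36 to -1.91. No peak was listed for Zfp609, Zfp711 and Zfp683, the last of which encodes HOBIT, a regulator of tissue-resident lymphocytes.

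Of 10 zinc finger genes of the KRAB family with a described target, 5 had a peak and 1 had a peak of p under 0.001, beside 46.3% and 34.0% of protein-coding genes, so the count with a peak was near the background. The KRAB pattern was found in 9 of them and not in Zfp180, so the pattern misses some domains. Zfp617 had 3 peaks, the best in the 3' UTR with a fold of 2.95 and a log10 p of -6.66. Zfp809, which silences murine leukaemia virus in stem cells, had 1 peak with a fold of 1.68 and a log10 p of -2.99. Zfp180 had 1 peak with a fold of 1.49, Zfp708 with a fold of 13.3 and Zfp92 with a fold of 11.4, at log10 p of -1.68, -2.50 and -2.09. All windows of Zfp708 are shared with other genes. No peak was listed for Zfp57 and Zfp445, which protect imprinted methylation, for Zfp568, which represses a placental Igf2 promoter, or for Zfp932 and Zfp961.

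The highest folds belonged to other members. Zfp748, with a KRAB pattern and 23 finger patterns, had a peak with a fold of 319 and a log10 p of -211, the highest fold and lowest p of all members. It spanned 6737 nt, of which 68 nt were exonic, and also lay on exons of another gene, 9430065F17Rik. The second peak of Zfp748, in its 3' UTR, had a fold of 2.92 and a log10 p of -4.60. Zfp422 had an 840-nt peak in the 3' UTR with a fold of 116, and Zfp26 a 930-nt peak with a fold of 97.4, centred 5104 nt after the stop codon. Zfp651 had 2 overlapping peaks with folds of 114 and 112, and Zfp260 a 1201-nt peak with a fold of 106, and none of these 3 touched a coding isoform.

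Zfp69 had the second lowest p, with a log10 p of -173 and a fold of 62.6, in a peak that carried the 5' UTR label and was centred in the coding sequence ahead of the fingers. A GGAC lay at position -34 from its centre, and is shown because this peak pairs a high fold with strong significance on the coding transcript.

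Zfp69, coding sequence, chr4:120947532-120947555, minus strand: gatgctaatgGGACacaacaagaa

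Among members with the most peaks, Zfp507 had 3 low peaks in the 3' UTR with folds from 1.79 to 2.16, a peak of fold 91.0 and log10 p -41.3 that touched no coding isoform, and a 5' UTR peak of fold 9.48. Of the 5 peaks of Zfp710, 2 with folds of 30.3 and 9.48 touched no exon of the gene. Zfp110 and Zfp169 had 4 peaks each, as did 5 further members, with folds from 1.75 to 6.64 and from 2.21 to 11.4. In each of these 4 genes the folds of at least 5 lay on parts of the gene outside the coding isoforms or at its 5' end.

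Of 23 genes that work with KRAB proteins in silencing, 18 had a peak (78.3%, interval 58.1 to 90.3%), beside 46.3% of protein-coding genes. A peak of p under 0.001 was listed for 15 (65.2%, interval 44.9 to 81.2%), beside 34.0%. Their transcripts were also longer, with a median of 4320 nt against 2683 nt over all protein-coding genes, and the part of length in these shares was not tested. Their 44 peaks had a median fold of 1.95. Trim28 had a peak with a fold of 1.62 and a log10 p of -14.0, centred 68 nt after the stop codon, and a peak of fold 68.3 that touched no exon of it. The only peak of Setdb1 was in its 5' UTR, with a fold of 58.8. No peak was listed for Cbx3, Dnmt1, Dnmt3b, Hdac2 and Morc3.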

How the data were processed

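Per the labels and the study's methods, poly(A) RNA of sorted splenic NK cells was cut to fragments of about 100 nt and pulled down with an m6A antibody (Synaptic Systems), and 4 libraries (2 m6A immunoprecipitates, 2 inputs) were sequenced. After read trimming, the authors aligned to GRCm38 with HISAT2, called peaks with exomePeak and labelled them with ChIPseeker, and how replicates were combined is not given in the sources used here. The fold enrichment is a ratio deposited by the authors. The significance is a score deposited by the authors, equal to log10 of the peak-calling p without adjustment, with a weakest value of -1.30. The deposited width of a peak is its genomic span, introns included. The list held 20751 rows, and 24 exact repeats were dropped.

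Peaks were placed on the longest coding transcript of their gene (GENCODE, GRCm38) by the centre of their exonic part, which was possible for 15715 peaks. Fingers (cysteine, 2 to 4 residues, cysteine, 12 residues, histidine, 3 to 5 residues, histidine), linkers, KRAB patterns and finger coverage were taken from the transcript with the longest coding sequence, since some longest transcripts encode a short protein. Shares carry 95% Wilson intervals, which cover counting error only, and peaks of 1 gene are not independent. No test was run, because genes and peaks are not replicates. Python 3 with pandas, statsmodels and matplotlib was used, and the placement was tested on simulated transcripts. Named genes are the members of the 3 role lists and the members ranked highest for fold (5), lowest p (5), number of peaks (5, ties by name) and exonic width (3). Zfp52, Zfp787, Zfp457, Zfp612, Zfp936, Zfp968 and Zfp991 were chosen after their values were seen. Members and lists were chosen with earlier results of these data known.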

Additional observations from a re-analysis of the deposited data

How the results depend on the processing

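No paired analysis was possible because the list has no value per sample, and for the same reason no replicate could be left out. Of 40 alternatives over 7 results, 20 stayed within the interval of the value reported, 16 moved out of it on the same side of the background and 4 changed side. The share of members with a peak fell to 30.4% at p under 0.001 (background 34.0%), and the 53.4% of all members stood below the 54.8% of other genes with transcripts of at least 2597 nt, while members of that length had 58.4%, both comparisons chosen after seeing the data. It was 45.8% for folds of at least 2 and 30.1% for folds of at least 5. With the centre of the genomic span, the share centred in the coding sequence became 18.3% (background 13.02%), and with any overlap 40.8% (background 47.1%). The share with the 3' UTR label was 43.3% for folds of at least 5 (background 34.2%) and 68.8% for folds under 5 (background 69.9%). The share on the last coding exon was 66.5% by the centre of the span (background 55.8%). It was 81.0% for folds under 5 (background 71.3%) and 61.8% for folds of at least 5 (background 46.4%). The median fold was 5.69 for the strongest peak of each gene (background 3.79) and 2.84 for peaks of at most 500 nt (background 2.11). It was 2.12 for folds under 5 (background 1.9), a setting added after seeing the data. The median width was 239 nt by span (background 271 nt), 241 nt at p under 0.001 (270 nt) and 121 nt for folds under 5 (180 nt). Members with a strong peak made up 73.3% at a fold of at least 3 (background 56.4%) and 34.4% at 10 (background 27.5%). With a fold of at least 5 and p under 0.001 as well they made up 32.3% (background 25.7%). The coverage of finger patterns has no interval and was held to a factor of 1.5, which 7.21% at p under 0.001 met and 2.34% for folds under 5 did not, both below the whole transcripts. Each setting counts only members with such a peak, 173 with all peaks, 101 at p under 0.001 and 112 for folds under 5. The factor thus does not compare like sets. In nt of finger patterns inside peaks, these settings gave 11848, 4752 and 1657. The unknown depth limits every statement on members without a peak.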
